A study of Mus musculus with 9 samples.

Results

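Alcohol dehydrogenases (ADH) and aldehyde dehydrogenases (ALDH) are the enzymes with which the liver oxidizes alcohols to aldehydes and aldehydes to acids. The genes described here are Aldh3a2, Aldh2, Aldh1b1, Aldh1l1, Aldh6a1, Aldh7a1, Aldh8a1, Aldh9a1, Adh1 and Adh4. They were taken by symbol, with the requirement of a value above 0 in at least 1 liver, and all 10 named genes met it among 23183 gene symbols in the tables. All 10 were above 0 in each of the 9 livers and passed the minimum level of the tests in every comparison.

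Livers of 9 male mice were sequenced as poly(A)-selected RNA, with a separate library for every mouse. All belonged to C57BL/6J, an inbred strain prone to obesity on fat-rich food. The ND group (mice 6, 7 and 9) received a normal diet with 14% fat for 10 weeks. The HFD group (mice 1, 2 and 3) received a high-fat diet with 60% fat for 10 weeks. The PRF 50 group (mice 3, 9 and 10) received the same high-fat diet for 10 weeks and, in the last 5 of them, 50 mg/kg per day of PRF by mouth. PRF is a hexane fraction rich in polymethoxyflavones from the leaves of Jinkyool (Citrus sunki), given in carboxymethyl cellulose. The labels give postnatal day 100 as the age of all 9 mice, and the mice of all groups were fasted before the tissues were taken. The mice are males of 1 strain, the deposited libraries cover 1 dose of PRF, and PRF was given only on the high-fat diet. HFD vs. ND asks about the diet and PRF 50 vs. HFD about PRF on the high-fat diet. PRF 50 vs. ND asks how the treated livers stood against those on the normal diet. Whether the ND and HFD mice were also given carboxymethyl cellulose by mouth is not stated. PRF 50 vs. HFD may thus include the carrier and its daily dosing.

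Values are given as log2(FPKM + 1), where FPKM is the number of fragments relative to transcript length and sequencing depth, or as FPKM where levels of different genes are compared. Read counts were not used, so the absolute depth behind each value is unknown. Relative depths, estimated from the most common ratio between values under 0.3 FPKM, were 1.17 in HFD mouse 2 and 1.60 in HFD mouse 3 when HFD mouse 1 was set to 1. On this scale ND mice 6, 7 and 9 had 1.06, 1.15 and 1.11. PRF 50 mice 3, 9 and 10 had 0.983, 1.52 and 0.963. Fold changes are on the log2(FPKM + 1) scale, and each adjusted p is from limma with Benjamini-Hochberg adjustment over all tested genes.

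The tissue label was checked against hepatocyte markers. Apoa1, an apolipoprotein made by hepatocytes, was the most abundant of the 8 listed, with a mean of 9561 FPKM over the 9 livers. Alb, the gene of albumin and a defining hepatocyte product, was listed at 0 in all 9 livers, so a gene listed at 0 here may still be expressed. Rnu6 stood at 22.44 on the log2 scale in HFD mouse 2 and at 0 in the other 8 livers. The highest value of any gene in those 8 was 14.64, in ND mouse 6. In whole liver tissue, fewer cells of a type and less RNA per cell cannot be told apart.

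ADH enzymes pass the hydrogen of an alcohol to NAD+, and ALDH enzymes then turn the aldehyde into an acid, which removes a reactive compound. In hepatocytes the substrates include ethanol and acetaldehyde, retinol, fatty aldehydes from lipid breakdown, and aldehyde intermediates of amino acid, folate and carnitine metabolism. The members sit in different compartments: Aldh2, Aldh1b1 and Aldh6a1 are mitochondrial, Adh1, Adh4 and Aldh1l1 are cytosolic, and Aldh3a2 is bound to the endoplasmic reticulum and peroxisomes.

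Among the 10 members, Adh1 had the highest level, with a mean of 1618 FPKM over the 9 livers, and Aldh2 the next, with 563.3 FPKM. Aldh1l1 followed with 288.6 FPKM. Aldh6a1, Aldh8a1, Aldh7a1 and Aldh3a2 had means of 166.6, 151.7, 149.3 and 146.8 FPKM, which lie close together. Adh4 had 121.6 FPKM, Aldh9a1 92.3 FPKM and Aldh1b1, the least abundant member, 22.8 FPKM. The sum over the 10 members was 3342 ± 370 FPKM in ND, 3645 ± 343 FPKM in HFD and 2974 ± 124 FPKM in PRF 50 (SD, n = 3 each).

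**Figure D1:**
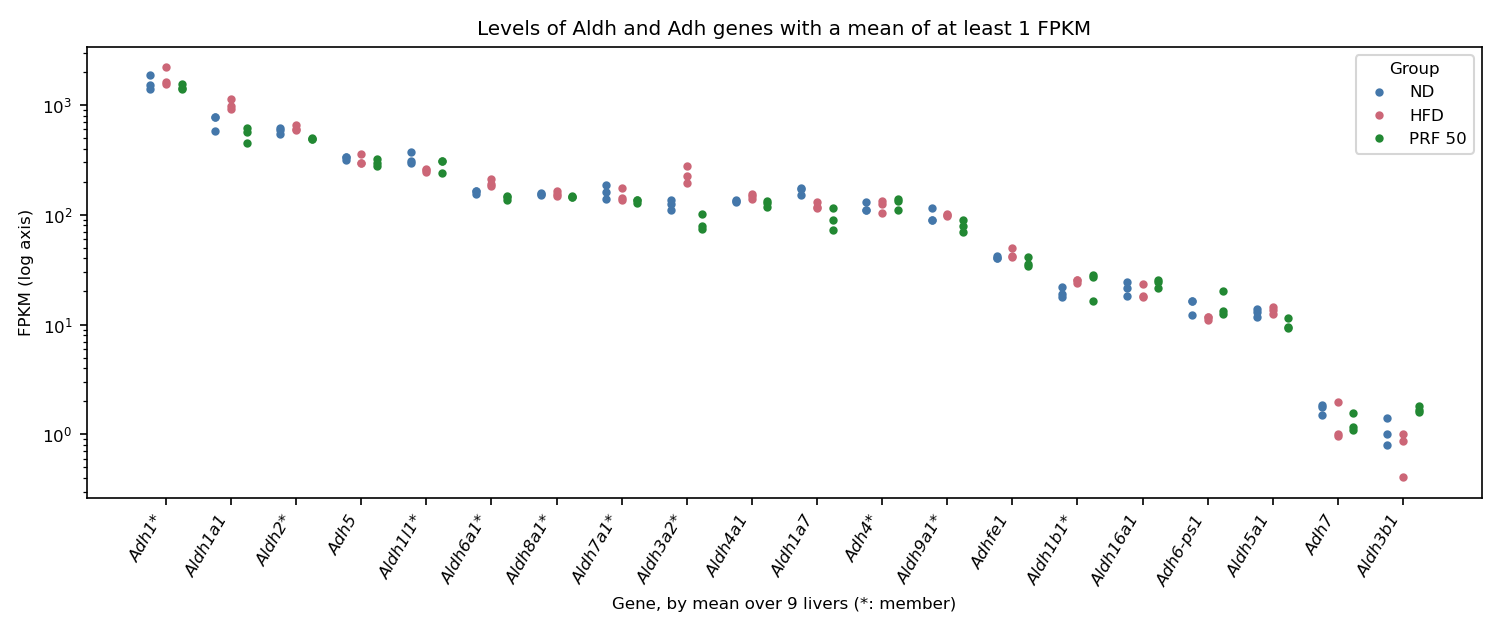
FPKM on a log axis for each Aldh and Adh gene averaging 1 FPKM or more, 1 point per liver, coloured by group; an asterisk marks the 10 members. Adh1 lies highest and Aldh3a2 is the member whose 3 groups stand farthest apart.

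Aldh3a2 encodes the fatty aldehyde dehydrogenase, which oxidizes long-chain aldehydes from phytol, ether lipids and sphingolipids and is deficient in Sjögren-Larsson syndrome. The gene lies at chr11:61223417-61267464 on the minus strand (GENCODE M21, GRCm38). None of its 5361 distinct 50-base stretches was shared with a transcript of another gene. Its promoter window, 250 bases before to 50 bases after the start, lies at chr11:61267137-61267436 on the minus strand (RefSeq, GRCm38.p6). It is shown because Aldh3a2 was the only member called in the comparisons of 6 mice. The window of Adh4 at chr3:138415247-138415546 on the plus strand is set beside it as that of a member with no call. Capitals mark exact matches, on either strand, to AGGTCA (the half-site of nuclear receptors), CCAAT and GGGCGG (the GC box).
Aldh3a2: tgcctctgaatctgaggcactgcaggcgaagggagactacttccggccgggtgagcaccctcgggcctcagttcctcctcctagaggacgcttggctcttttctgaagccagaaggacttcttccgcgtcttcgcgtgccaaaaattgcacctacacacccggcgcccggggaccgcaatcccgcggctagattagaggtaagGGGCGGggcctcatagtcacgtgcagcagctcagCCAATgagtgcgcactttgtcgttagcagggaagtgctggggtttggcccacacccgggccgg
Adh4: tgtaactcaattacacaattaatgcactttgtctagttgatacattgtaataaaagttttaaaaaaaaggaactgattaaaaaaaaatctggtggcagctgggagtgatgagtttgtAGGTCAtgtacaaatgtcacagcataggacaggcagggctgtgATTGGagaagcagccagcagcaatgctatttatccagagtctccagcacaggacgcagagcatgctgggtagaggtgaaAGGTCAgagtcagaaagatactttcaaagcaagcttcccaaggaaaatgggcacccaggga

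The Aldh3a2 window held 1 CCAAT and 1 GGGCGG, no AGGTCA, and 61.7% G and C with 21 CG pairs. The Adh4 window held 2 copies of AGGTCA, 1 CCAAT on the opposite strand, and 42.3% G and C with 1 CG pair. Of 32851 promoter windows of the same length, 16.3% held AGGTCA on either strand, 37.4% held CCAAT and 35.7% held GGGCGG. The RefSeq table matched 8 of the 10 members with 9 windows, not Aldh2 and Aldh7a1. AGGTCA was in 3 of the 9 windows, CCAAT in 7 and GGGCGG in 3, and TATAAA, held by 13.6% of all windows, was in none. The direct repeat AGGTCANAGGTCA was in 13 of all windows and in none of the members' windows. A match of letters is a description and shows no bound factor.

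Aldh3a2 had 7.60, 7.81 and 8.14 in HFD mice 1, 2 and 3 on the log2(FPKM + 1) scale. It had 6.31, 6.69 and 6.24 in PRF 50 mice 3, 9 and 10, and 7.09, 6.97 and 6.80 in ND mice 6, 7 and 9. All 3 HFD livers lay above all ND livers and all ND livers lay above all PRF 50 livers, so no groups overlapped. The group means were 6.95 ± 0.15 in ND, 7.85 ± 0.27 in HFD and 6.41 ± 0.24 in PRF 50 (SD, n = 3 each).

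Aldh3a2 was lower in PRF 50 than in HFD, by a log2 difference of -1.44 (SE 0.17, 95% interval -1.84 to -1.03, limma adjusted p = 0.015). This is a 2.71-fold lower level. It was higher in HFD than in ND, by 0.90 (SE 0.16, 95% interval 0.52 to 1.27, limma adjusted p = 0.0452). Between PRF 50 and ND it did not pass the test, with -0.54 and a 95% interval of -0.89 to -0.19 (limma adjusted p = 0.193). The same 3 HFD mice stand in the first 2 of these comparisons.

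Both calls of Aldh3a2 depended on single mice. For PRF 50 against HFD, the limma adjusted p rose to 0.0592 without HFD mouse 2, 0.0529 without HFD mouse 3 and 0.0523 without PRF 50 mouse 3, while the log2 fold change stayed between -1.57 and -1.29 over all 13 alternatives, whose adjusted p ranged from 0.00324 to 0.0592. For HFD against ND, the limma adjusted p was 0.0784, 0.154 and 0.104 without ND mice 6, 7 and 9, and 0.146 and 0.144 without HFD mice 2 and 3. It was 0.102 with no minimum level and 0.0543 with quantile normalization. The log2 fold change of this comparison ranged from 0.75 to 1.02, and the limma adjusted p from 0.036 to 0.154, over the 13 alternatives.

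Markers of Kupffer cells and other macrophages were higher in PRF 50 than in HFD. In that comparison 10 of 12 tested markers of 14 listed were called higher by limma, against 3.59% of tested genes called in either direction, with a median log2 fold change of 1.43, and the count fell to 0 without HFD mouse 3, to 1 without HFD mouse 2 or PRF 50 mouse 3, to 5 without PRF 50 mouse 10, and to 2 of 14 with no minimum level. The median log2 fold change of the markers stayed between 1.22 and 1.56 when a mouse was left out. Between HFD and ND limma called 0 of 12, with 0 at an unadjusted p under 0.05, and between PRF 50 and ND 0 of 12, with 12 at an unadjusted p under 0.05, against 12.5% of tested genes. The latter count of calls was 4 with all 9 mice in 1 fit, 2 without ND mouse 9 and 1 without PRF 50 mouse 9. Their summed level was 752.4, 426.1 and 488.5 FPKM in PRF 50 mice 3, 9 and 10, 138.7, 223.3 and 221.8 FPKM in HFD mice 1, 2 and 3, and 108.3, 203.5 and 266.7 FPKM in ND mice 6, 7 and 9. The most abundant of them was Cd5l, with a mean of 54.1 FPKM over the 9 livers, and none of the 14 was at 0 in all livers. The part of these cells in the lower Aldh3a2 of PRF 50 was not tested. Of the hepatocyte markers, 0 of 7 tested were called by limma in PRF 50 vs. HFD, 1 of 7 had an unadjusted p under 0.05, against 20.2% of tested genes, and the median was 0.19. Between HFD and ND, where Aldh3a2 was higher, limma called 0 of these 7, 2 of 7 had an unadjusted p under 0.05, against 15.1% of tested genes, both lower, and the median was -0.32. Of 5 periportal hepatocyte markers limma called 0 between HFD and ND, 4 of 5 had an unadjusted p under 0.05, against the same 15.1%, all 5 were lower in HFD, and the median was -0.45. In PRF 50 vs. HFD limma called 0 of these 5, 1 of 5 had an unadjusted p under 0.05, against 20.2%, and the median was 0.21. Of 6 stellate cell markers, 2 had such a p in HFD vs. ND, both higher, with a median of 0.32. In PRF 50 vs. HFD 2 of these 6 had such a p, both lower, while 4 of 6 lay above 0, with a median of 0.12. Col1a1, 1 of the 6, had 0.571 FPKM in ND, 1.72 FPKM in HFD and 0.948 FPKM in PRF 50. It reached the minimum level only through HFD, so these stellate counts are not read as a result. Of 6 sinusoidal endothelial markers, 1 had such a p in HFD vs. ND, lower, with a median of -0.57. In PRF 50 vs. HFD 0 of these 6 did, with a median of 0.45. Limma called 0 of either list in both comparisons.

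Aldh3a2 was the only 1 of the 10 members called at an adjusted p under 0.05 in PRF 50 vs. HFD by limma, against 3.59% of 10084 tested genes. It was also the only 1 of 10 in HFD vs. ND, against 1.33% of 9978 tested genes. Limma called 0 of 10 in PRF 50 vs. ND, against 0.458% of 10051 tested genes, and 1 of 10 had an unadjusted p under 0.05, against 12.5% of tested genes. When a fold change above 2 was required beside an unadjusted p under 0.05, Aldh3a2 was again the only 1 of 10 in PRF 50 vs. HFD, against 2.1% of tested genes. By unadjusted p, Aldh3a2 ranked 36 among 10084 genes in PRF 50 vs. HFD.

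**Figure D2:**
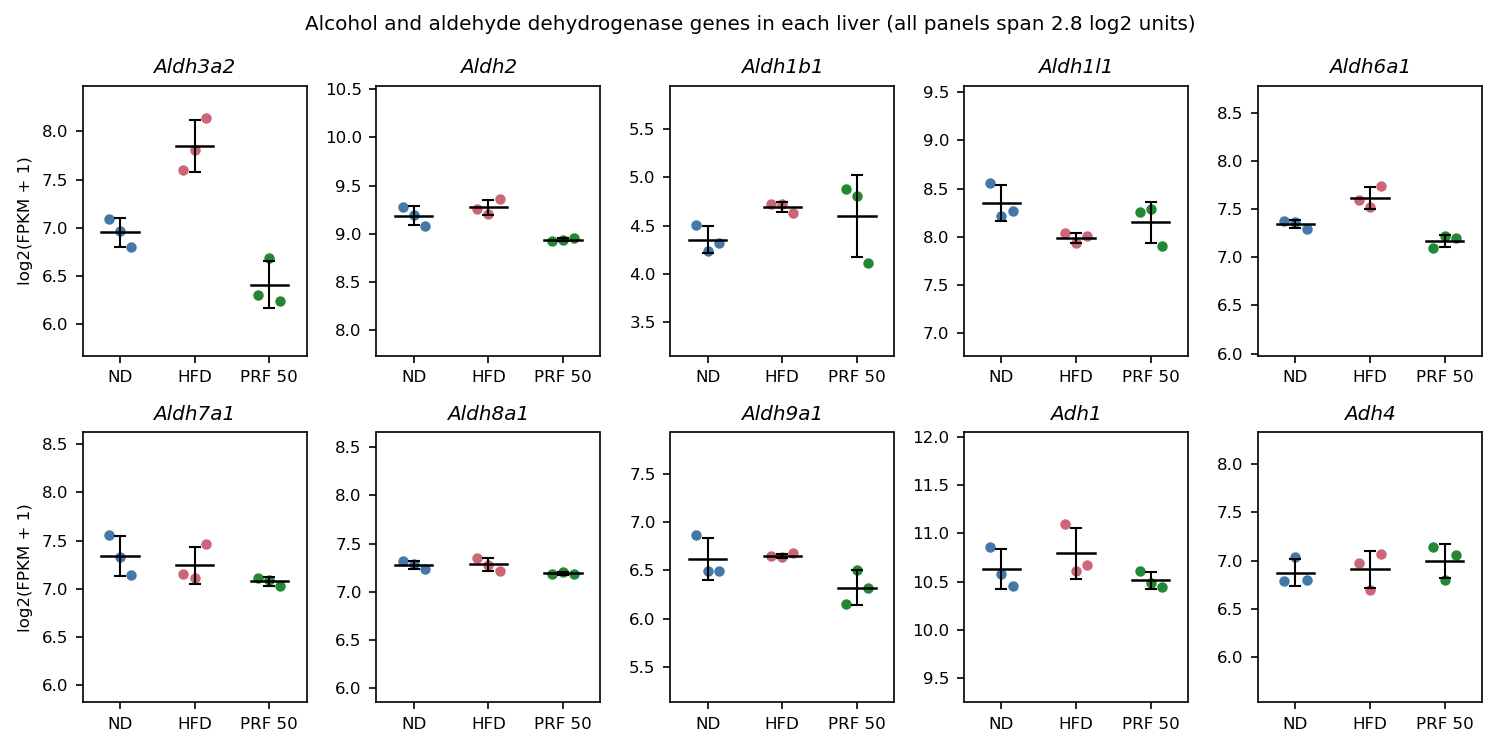
log2(FPKM + 1) of the 10 members in each liver, 1 point per mouse, with the group mean and SD as a line and bars; each panel spans the same range. Aldh3a2 lies at 7.60 or above in HFD and at 6.69 or below in PRF 50.

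At an unadjusted p under 0.05, 4 of 10 members were lower in PRF 50 vs. HFD and none was higher, against 20.2% of tested genes in either direction. Besides Aldh3a2 these were Aldh6a1, Aldh2 and Aldh9a1. The count was also 4 of 10 in HFD vs. ND, against 15.1% of tested genes, with Aldh3a2, Aldh1b1 and Aldh6a1 higher and Aldh1l1 lower. The median log2 fold change of the members was -0.22 in PRF 50 vs. HFD, 0.060 in HFD vs. ND and -0.19 in PRF 50 vs. ND. Over all tested genes it was -0.015, -0.0091 and -0.031. The size of the members' medians depended on scaling: with quantile normalization they were -0.12, 0.13 and -0.056. A log2 fold change below 0 was found for 8 of 10 members in PRF 50 vs. HFD, against 53.0% of tested genes, and for 7 of 10 with quantile normalization, where Aldh8a1 turned to the other side. For PRF 50 against ND it was found for 8 of 10, against 56.6% of tested genes, and for 6 of 10 with quantile normalization.

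The values of PRF 50 and HFD did not overlap for 5 of 10 members, Aldh3a2, Aldh2, Aldh6a1, Aldh8a1 and Aldh9a1, against 26.2% of tested genes. Those of HFD and ND did not overlap for 4 of 10, against 20.7%, and those of PRF 50 and ND for 5 of 10, against 19.9%.

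**Figure D3:**
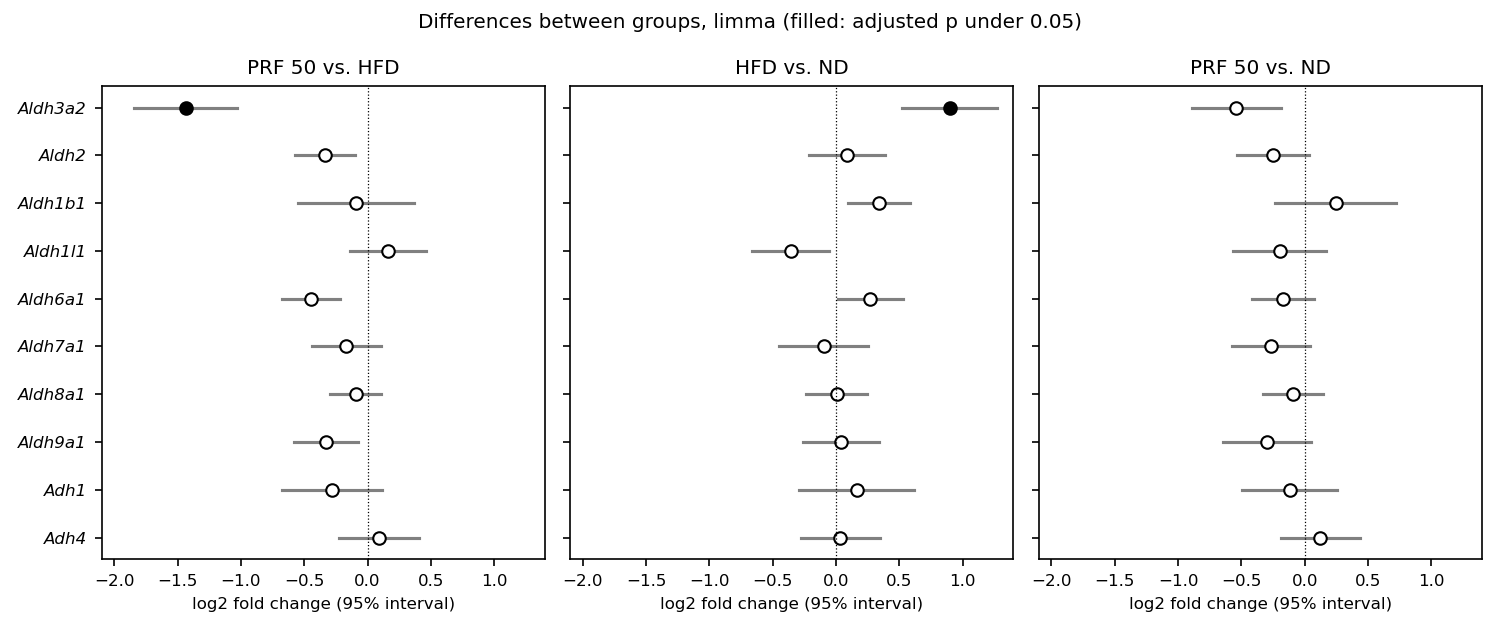
log2 fold change with its 95% interval for the 10 members in each comparison; filled circles have an adjusted p under 0.05 in limma. Aldh3a2 is filled at -1.44 in PRF 50 vs. HFD and at 0.90 in HFD vs. ND, and no circle is filled in PRF 50 vs. ND.

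Adh1 and Adh4 begin the oxidation of ethanol and retinol. Adh1 lies at chr3:138260991-138290698 and Adh4 at chr3:138415466-138430892, both on the plus strand (GENCODE M21, GRCm38). On the other strand Adh1 overlaps Gm16559. Adh1 ranged from 10.44 in PRF 50 mouse 10 to 11.10 in HFD mouse 1, and the 3 groups overlapped. Of its 1443 distinct 50-base stretches, 0.277% were shared with Adh6-ps1. Adh1 differed by -0.28 in PRF 50 vs. HFD (95% interval -0.67 to 0.11) and by 0.16 in HFD vs. ND (95% interval -0.29 to 0.62). Adh4 ranged from 6.70 in HFD mouse 2 to 7.14 in PRF 50 mouse 3, with overlap of all groups. Its log2 fold change was 0.089 in PRF 50 vs. HFD (95% interval -0.23 to 0.41) and 0.034 in HFD vs. ND (95% interval -0.28 to 0.35). Adh1 gave 49.0% of the summed FPKM of the 10 members in HFD and 49.1% in PRF 50.

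Aldh2, the mitochondrial enzyme that clears acetaldehyde, lies at chr5:121566027-121593824 on the minus strand and overlaps Gm42879 on the other strand. It had 9.25, 9.21 and 9.36 in HFD mice 1, 2 and 3, 8.93, 8.93 and 8.95 in PRF 50 mice 3, 9 and 10, and 9.28, 9.20 and 9.08 in ND mice 6, 7 and 9. The PRF 50 values lay close together and below all other livers, whereas HFD and ND overlapped. Aldh2 had a log2 fold change of -0.33 for PRF 50 against HFD (95% interval -0.57 to -0.095, limma adjusted p = 0.126), and 0.085 in HFD vs. ND (95% interval -0.21 to 0.38).

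Aldh1b1, a mitochondrial relative of Aldh2, lies at chr4:45799022-45804604 on the plus strand. It had 4.73, 4.72 and 4.63 in HFD mice 1, 2 and 3, 4.51, 4.23 and 4.32 in ND mice 6, 7 and 9, and 4.88, 4.81 and 4.11 in PRF 50 mice 3, 9 and 10. All HFD values lay above all ND values, and PRF 50 mouse 10 lay below the other 8 livers. Aldh1b1 differed by a log2 fold change of 0.34 in HFD vs. ND (95% interval 0.092 to 0.58, limma adjusted p = 0.203) and -0.092 in PRF 50 vs. HFD (95% interval -0.55 to 0.37).

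Aldh6a1 encodes the methylmalonate semialdehyde dehydrogenase of valine breakdown and lies at chr12:84430717-84451004 on the minus strand, where it overlaps Bbof1 on the other strand. It had 7.59, 7.52 and 7.73 in HFD mice 1, 2 and 3, 7.10, 7.21 and 7.20 in PRF 50 mice 3, 9 and 10, and 7.37, 7.37 and 7.29 in ND mice 6, 7 and 9. As with Aldh3a2, HFD lay highest and PRF 50 lowest with no overlap between groups. For Aldh6a1, PRF 50 against HFD gave a log2 fold change of -0.44 (95% interval -0.67 to -0.22, limma adjusted p = 0.0559). With all 9 mice in 1 fit it passed the threshold (limma adjusted p = 0.0391, range over 13 alternatives 0.0391 to 0.176). HFD against ND gave 0.27 (95% interval 0.012 to 0.53, limma adjusted p = 0.314).

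Aldh7a1, which oxidizes the semialdehyde of lysine breakdown, lies at chr18:56509687-56572951 on the minus strand and overlaps Phax on the other strand. It ranged from 7.02 in PRF 50 mouse 10 to 7.55 in ND mouse 6. PRF 50 and HFD overlapped, and all PRF 50 values lay below all ND values. The log2 fold change of Aldh7a1 was -0.17 in PRF 50 vs. HFD (95% interval -0.44 to 0.11) and -0.26 in PRF 50 vs. ND (95% interval -0.57 to 0.043, limma adjusted p = 0.46).

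Aldh8a1, which acts on an aldehyde of the kynurenine pathway of tryptophan breakdown, lies at chr10:21377291-21396585 on the plus strand. It varied least of the 10 members, between 7.18 and 7.36 over the 9 livers. The 3 PRF 50 values lay below the other 6. The log2 fold change of Aldh8a1 was -0.095 in PRF 50 vs. HFD (95% interval -0.29 to 0.10), with the opposite sign under quantile normalization, and 0.0032 in HFD vs. ND (95% interval -0.24 to 0.24).

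Aldh9a1, which makes the precursor of carnitine from an aldehyde, lies at chr1:167349991-167368532 on the plus strand. It had 6.65, 6.64 and 6.68 in HFD mice 1, 2 and 3, 6.15, 6.50 and 6.31 in PRF 50 mice 3, 9 and 10, and 6.87, 6.49 and 6.50 in ND mice 6, 7 and 9. PRF 50 lay below HFD without overlap, and ND overlapped both. For Aldh9a1, PRF 50 against HFD gave a log2 fold change of -0.33 (95% interval -0.58 to -0.079, limma adjusted p = 0.146).

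Aldh1l1, the 10-formyltetrahydrofolate dehydrogenase of folate metabolism, lies at chr6:90486427-90600203 on the plus strand. It overlaps Gm45901 and Gm44236 on the same strand and Gm15756 on the other, and shared no 50-base stretch with another gene. It had 8.56, 8.22 and 8.27 in ND mice 6, 7 and 9, 8.03, 7.93 and 8.01 in HFD mice 1, 2 and 3, and 8.26, 8.29 and 7.91 in PRF 50 mice 3, 9 and 10. Every HFD value of Aldh1l1 lay below every ND value, the reverse of Aldh3a2. PRF 50 mouse 10 was the lowest of the 9 livers, and the other PRF 50 mice lay within the ND range. The log2 fold change of Aldh1l1 was -0.36 in HFD vs. ND (95% interval -0.66 to -0.053, limma adjusted p = 0.264) and 0.16 in PRF 50 vs. HFD (95% interval -0.14 to 0.46).

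By group mean, 6 of the 10 members were ordered HFD, ND, PRF 50 from high to low: Aldh3a2, Aldh2, Aldh6a1, Aldh8a1, Aldh9a1 and Adh1. With quantile normalization Aldh8a1 and Adh1 left this order, with 0.019 and 0.046 in PRF 50 vs. ND. The HFD vs. ND difference also turned below 0 for Aldh9a1 without ND mouse 7 (-0.027) or ND mouse 9 (-0.025), and for Aldh8a1 without ND mouse 9 (-0.018) or HFD mouse 1 (-0.032). Neighbours in these orders were separated by limma at an adjusted p under 0.05 only for HFD and ND in Aldh3a2. Aldh3a2 gave 7.56% of the summed FPKM of the 8 ALDH members in ND, 13.4% in HFD and 6.11% in PRF 50, while Aldh2 gave 35.8%, 35.7% and 35.4%.

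The other 18 Aldh and Adh symbols included 8 with a mean under 1 FPKM, Aldh18a1, Aldh1a2, Aldh1a3, Aldh1l2, Aldh3a1, Aldh3b2, Aldh3b3 and Adh6a. Of the 13 other ALDH genes, 6 were tested in PRF 50 vs. HFD, among them Aldh3b1, which reached the minimum level only through PRF 50. Only 1 was called, Aldh1a1, against 3.59% of tested genes. Aldh1a1 is a cytosolic retinal dehydrogenase that was more abundant than Aldh2. Aldh1a1 had 9.85, 9.93 and 10.16 in HFD mice 1, 2 and 3, 9.27, 9.16 and 8.83 in PRF 50 mice 3, 9 and 10, and 9.61, 9.59 and 9.18 in ND mice 6, 7 and 9. Its HFD values lay above all others, as those of Aldh3a2 did, and PRF 50 and ND overlapped. For Aldh1a1, PRF 50 against HFD gave -0.89 on the log2 scale (95% interval -1.26 to -0.53, limma adjusted p = 0.0335), and the call was lost without each of the 6 mice in turn (limma adjusted p up to 0.109, range over 13 alternatives 0.0237 to 0.109). Aldh1a1 shared 6.06% of its 50-base stretches with Aldh1a7, so their reads may be partly exchanged.

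Aldh1a7, Aldh4a1, Aldh5a1, Aldh16a1 and Aldh3b1 were not called in any comparison in which they were tested, with means of 126.1, 135.7, 12.2, 21.7 and 1.18 FPKM. Aldh3b1 was higher in PRF 50 and reached the minimum level in PRF 50 vs. HFD only through that group, with 0.762 FPKM in HFD, so it is left out of the following counts. Of the 5 remaining ALDH genes, all but Aldh16a1 were lower in PRF 50 vs. HFD at an unadjusted p under 0.05 and with no overlap of groups, against 20.2% and 26.2% of tested genes in either direction. In PRF 50 vs. ND 2 of 5 had such a p, against 12.5%, and in HFD vs. ND 2 of 5, against 15.1%. Aldh1a7 was lower by 0.86 in PRF 50 vs. ND (95% interval -1.26 to -0.46 for the log2 fold change) and by 0.45 in HFD vs. ND (95% interval -0.72 to -0.18). Of the 50-base stretches of Aldh4a1, 45.0% were shared with the overlapping gene Gm21969, so its level is uncertain. In PRF 50 vs. HFD, HFD vs. ND and PRF 50 vs. ND, 3.59%, 1.33% and 0.458% of tested genes were called. At an unadjusted p under 0.05 the shares were 20.2%, 15.1% and 12.5%. Of the 4 other ADH genes in the tables, 3 were tested and 0 called by limma in each comparison, with 0 at such a p. Adh5, the glutathione-dependent formaldehyde dehydrogenase, was the most abundant of them with 314.8 FPKM, and Adhfe1 and Adh7 had 40.7 and 1.43 FPKM. The pseudogene Adh6-ps1 is not among these 4 and was not called in any comparison (unadjusted p = 0.0258 in HFD vs. ND by limma).

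Genes that act beside the members were counted in the same way, and the share of all tested genes called was 3.59% in PRF 50 vs. HFD, 1.33% in HFD vs. ND and 0.458% in PRF 50 vs. ND. At an unadjusted p under 0.05 the share in PRF 50 vs. HFD was 20.2%, and the median was -0.015. Beside Aldh3a2, 3 of 14 tested genes of fatty aldehyde formation and omega-oxidation were called lower in PRF 50 vs. HFD, with a median of -0.19. They were Cyp4a14 and Cyp4a10, which hydroxylate fatty acids at the last carbon, and Agmo, which cleaves ether lipids to a fatty aldehyde and glycerol. Cyp4a14 had a log2 fold change of -5.36 (limma adjusted p = 0.0147), Cyp4a10 -4.05 (limma adjusted p = 0.0235) and Agmo -0.56 (limma adjusted p = 0.0378). Cyp4a14 was called higher in HFD vs. ND, with 1.76 (limma adjusted p = 0.0077), and Cyp4a12b lower, with -3.64 (limma adjusted p = 0.0094). Cyp4a12b was also called lower in PRF 50 vs. ND, with -2.28 (limma adjusted p = 0.0441). In PRF 50 vs. HFD Cyp4a12b was higher without a call, with 1.36 (limma adjusted p = 0.0719) and no overlap of groups. Of the 14 tested genes, 5 were lower and 2 higher in PRF 50 vs. HFD at an unadjusted limma p under 0.05. The other higher gene was Cyp4f14, with 0.56 (limma adjusted p = 0.165). A log2 fold change above 0 was found for 6 of the 14 in PRF 50 vs. HFD. The HFD vs. ND call of Cyp4a14 was lost with all 9 mice in 1 fit (limma adjusted p = 0.164, range over alternatives 0.00504 to 0.164). With no minimum level Cyp4a12b lost its calls in HFD vs. ND (limma adjusted p = 0.0505, range over alternatives 0.00428 to 0.0505) and in PRF 50 vs. ND (limma adjusted p = 0.139, range over alternatives 0.0256 to 0.139).

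Beside Aldh9a1, 2 of 3 tested genes of carnitine synthesis and transport were called lower in PRF 50 vs. HFD, with a median of -0.76. Bbox1, which makes carnitine in the step after Aldh9a1, had -0.60 (limma adjusted p = 0.0348) and Slc25a20, the mitochondrial carnitine carrier, had -0.76 (limma adjusted p = 0.0232). Beside Aldh6a1, 0 of 12 tested genes of valine and propionyl-CoA breakdown were called by limma in PRF 50 vs. HFD, 9 of 12 had an unadjusted p under 0.05, against 20.2% of tested genes, 8 of them lower, and the median was -0.24. Hibadh, the most abundant of these and the enzyme just before Aldh6a1, had -0.35 (95% interval -0.59 to -0.11). Beside Aldh7a1, 0 of 5 tested lysine genes were called by limma, 1 of 5 had an unadjusted p under 0.05, which is not above that share, and Gcdh, the most abundant, had -0.42 (95% interval -0.66 to -0.17).

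Beside Aldh8a1, 1 of 7 tested kynurenine genes was called. Acmsd, whose product is the substrate of Aldh8a1, was higher in PRF 50 vs. HFD by 0.78 (limma adjusted p = 0.0249) and lower in HFD vs. ND by a log2 fold change of -0.83 (limma adjusted p = 0.0228). Beside Aldh1l1, 0 of 8 tested folate genes were called by limma and 1 of 8 had an unadjusted p under 0.05 in PRF 50 vs. HFD, against 20.2% of tested genes. Gnmt, the most abundant of them, had 0.16 (95% interval -0.29 to 0.61). Like Aldh1l1, Gnmt was lower in HFD than in ND without overlap, with -0.60 (95% interval -1.06 to -0.13, limma adjusted p = 0.23), and it had -0.44 in PRF 50 vs. ND (95% interval -0.87 to -0.0047, limma adjusted p = 0.397).

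Beside Adh1 and Aldh2, 1 of 4 tested genes of ethanol and acetate handling was called in PRF 50 vs. HFD, Acss3, a mitochondrial short-chain acyl-CoA synthetase, with -2.35 (limma adjusted p = 0.015). Beside Adh1 and Adh4, 1 of 10 tested retinol genes was called, Rdh16, a retinol dehydrogenase, with -1.30 (limma adjusted p = 0.015). Of 17 tested genes in a list of carbonyl reductases, aldehyde oxidases and related enzymes, 2 were called. They were Akr1d1 with -0.56 (limma adjusted p = 0.0411) and Dhrs4 with -0.46 (limma adjusted p = 0.0321). Of the calls on these neighbouring genes in PRF 50 vs. HFD, none was kept under each of the 6 fits that left out a mouse: Cyp4a14 kept it in 4 of 6, Acss3 and Rdh16 in 3, Cyp4a10 and Slc25a20 in 2, Acmsd and Bbox1 in 1, and Agmo, Akr1d1 and Dhrs4 in 0. The log2 fold changes kept their sign in all of these fits, between -6.16 and -4.77 for Cyp4a14, -4.80 and -3.61 for Cyp4a10, -2.67 and -2.14 for Acss3, -1.44 and -1.18 for Rdh16, and 0.71 and 0.89 for Acmsd, and between -0.83 and -0.44 for the other 5. Under the alternatives that kept all mice, Cyp4a14, Acss3, Rdh16 and Slc25a20 never lost this call and each of the other 6 lost it in 1 to 3 of them. With a mouse left out, Cyp4a14 and Cyp4a12b kept their HFD vs. ND calls in 6 of 6, and Acmsd in 2, and Cyp4a12b kept its PRF 50 vs. ND call in 2.

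**Figure D4:**
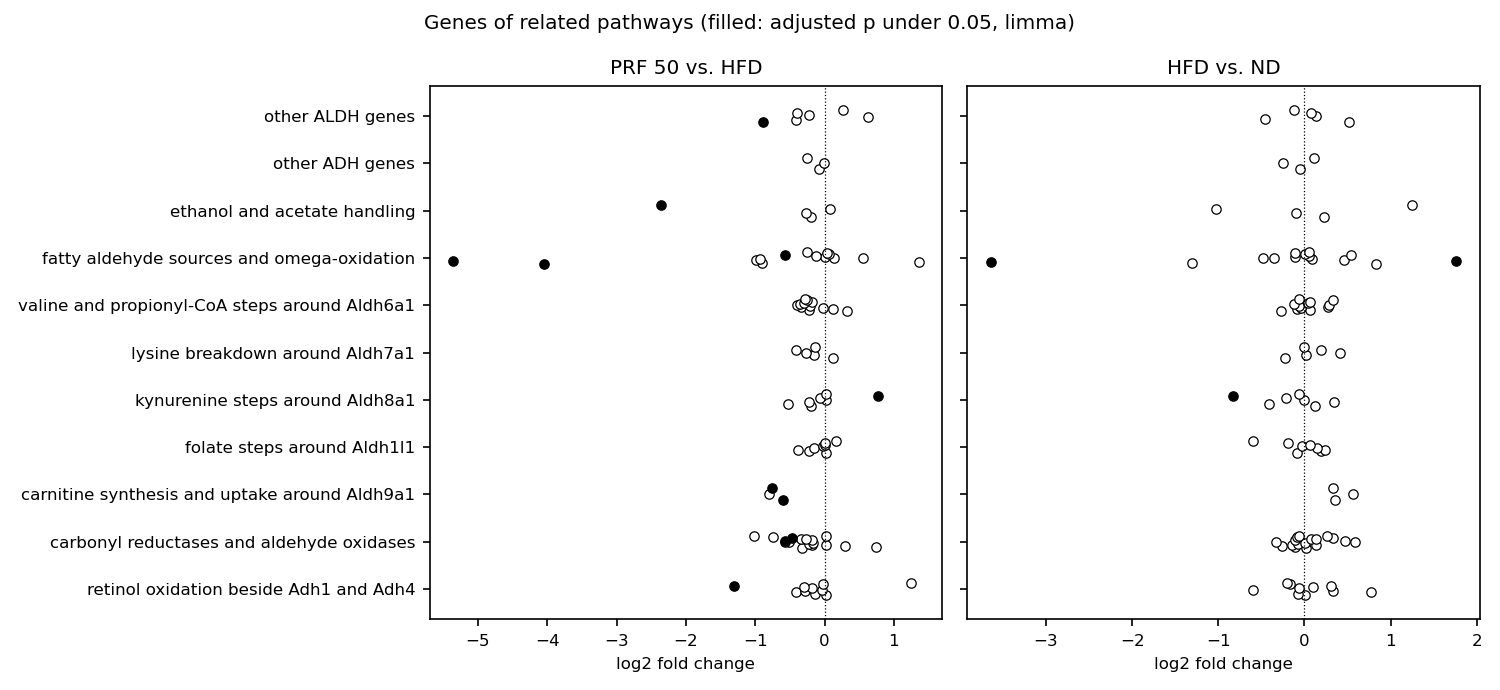
log2 fold change of each tested gene in 11 lists of genes that act beside the members, in PRF 50 vs. HFD and HFD vs. ND; filled circles have an adjusted p under 0.05 in limma. Cyp4a14 at -5.36 and Cyp4a10 at -4.05 lie farthest to the left in PRF 50 vs. HFD.

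The 5 genes whose profile over the 9 livers was most like that of Aldh3a2 were Plin4, Paqr7, Pex11a, Plin2 and Crat, chosen among 10038 other genes averaging 1 FPKM or more. Likeness was the root mean square difference of the mean-centred log2 values, which was 0.132, 0.17, 0.184, 0.195 and 0.196. Plin4 and Plin2 encode coat proteins of lipid droplets, Pex11a a peroxisomal membrane protein, Crat the carnitine acetyltransferase and Paqr7 a membrane progestin receptor. The member nearest to Aldh3a2 by the same measure was Aldh6a1, with 0.436. Plin4 is a low gene, with 1.43 FPKM against 146.8 FPKM for Aldh3a2.

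For PRF 50 against HFD, the log2 fold changes of Plin4, Paqr7, Pex11a, Plin2 and Crat were -1.50, -1.08, -1.77, -1.48 and -1.52 beside -1.44 for Aldh3a2, and limma called Paqr7, Pex11a, Plin2 and Crat. For HFD against ND they were 1.06, 0.65, 0.97, 0.74 and 1.17 beside 0.90 for Aldh3a2, and Pex11a and Crat were called by limma. Plin4 reached the minimum level only through HFD, with group means of 2.98 FPKM in HFD, 0.901 FPKM in ND and 0.417 FPKM in PRF 50, so no call is given for it. Its match in size depended on the added 1: with a pseudocount of 0.1 it had -2.78 in PRF 50 vs. HFD and 1.63 in HFD vs. ND. Over the 6 fits that left out a mouse, only Pex11a kept its PRF 50 vs. HFD call and only Crat its HFD vs. ND call in all 6. Because the profiles were chosen to match Aldh3a2, these values are a description.

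**Figure D5:**
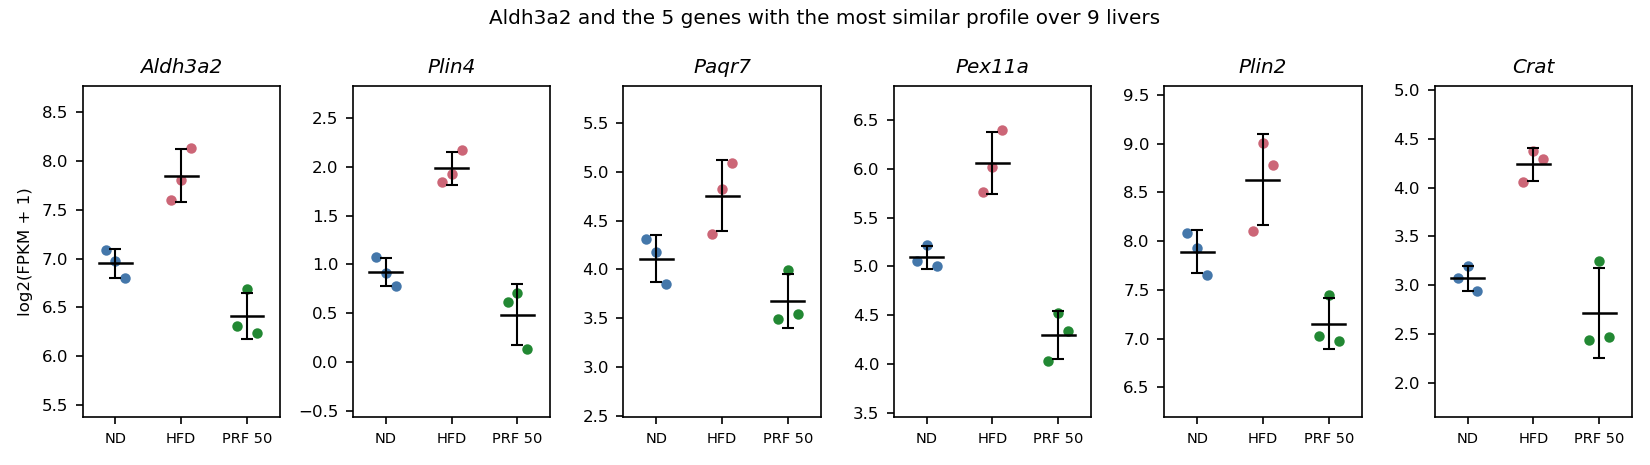
log2(FPKM + 1) in each liver for Aldh3a2 and the 5 genes with the most similar profile, 1 point per mouse, with group mean and SD. HFD is highest and PRF 50 lowest by group mean in each panel.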

How the data were processed

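After trimming by FASTX_Trimmer and BBMap, the authors mapped the reads to mm10 (the build in the submitters' notes) by TopHat, estimated FPKM by Cufflinks, and applied a geometric normalization that the authors credit to EdgeR. The authors deposited 1 log2 value per gene symbol and mouse, read here as log2(FPKM + 1); the added 1 is inferred from a lowest value of 0. Versions and gene annotation are not stated.

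The test was limma 3.58.1 in R 4.3.3 (lmFit, then eBayes with a trend), fitted to the 6 mice of both groups for genes averaging 1 FPKM or more. All p-values and intervals of single genes are from limma. In simulated data, run for PRF 50 vs. HFD only, the fit recovered 77.5% of log2 changes of 1 and 95% of those of 2. There were 9 false calls among 10079 genes. The simulated noise was drawn separately for each gene, and changes were placed only in genes above a higher minimum level than that of the test. Changes under 1 were not simulated. These shares therefore do not carry over to smaller differences or to genes that vary together between mice. The genes named are the 10 members, the called genes of the neighbouring lists or, where a list had none, its most abundant gene, the other Aldh and Adh genes, and the 5 most like Aldh3a2. Members and lists were chosen with earlier results of these data known. Positions are from GENCODE M21 (GRCm38).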

Additional observations from a re-analysis of the deposited data

How the results depend on the processing

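Each comparison was repeated with all 9 mice in 1 fit, without each mouse in turn, with eBayes without a trend, with quantile normalization or median-of-ratios scaling, with a pseudocount of 0.1, and with a minimum of 10 FPKM or none. In PRF 50 vs. HFD, limma called 2 members with all 9 mice in 1 fit, 0 to 1 without 1 mouse, and 1 otherwise. In HFD vs. ND it called 0 members with no minimum level and 0 with quantile normalization, and 0 to 1 without 1 mouse. In PRF 50 vs. ND it called 0 under every alternative run.

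Over all tested genes, PRF 50 vs. HFD had 362 calls, 126 with no minimum level and 15 to 242 without 1 mouse. HFD vs. ND had 133 calls, 37 with no minimum level and 35 to 140 without 1 mouse. PRF 50 vs. ND had 46 calls, 107 with all 9 mice in 1 fit, 11 with no minimum level and 4 to 71 without 1 mouse. The cause of these moves was not tested.

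Members with small differences changed sign. With quantile normalization, Aldh8a1 had 0.039 in PRF 50 vs. HFD, -0.017 in HFD vs. ND and 0.019 in PRF 50 vs. ND, and Adh1 had 0.046 in PRF 50 vs. ND. Without 1 mouse, PRF 50 vs. HFD ranged from -0.23 to 0.15 for Aldh1b1 and from -0.018 to 0.19 for Adh4. HFD vs. ND ranged from -0.21 to 0.0074 for Aldh7a1, -0.032 to 0.035 for Aldh8a1, -0.027 to 0.16 for Aldh9a1 and -0.043 to 0.14 for Adh4. The cause was not tested.

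No paired analysis was possible because the groups share fewer than 2 mouse numbers, and these number animals within a group. With 3 mice a group and no read counts, the counting error of a value is unknown, and it is largest for the least abundant genes.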
